A study of Homo sapiens with 15 samples.

Results

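The genes of the proteasome and of its assembly factors were followed in RNA sequencing of cultured human cells carrying short hairpin RNAs. They were every gene of the count tables whose symbol is PSM, a letter A to G and a number, together with POMP. The rule found 49 genes among 59428 in the table of IMR90, a lung fibroblast line, and the same 49 among 59412 in the table of Huh7, a hepatocyte-derived carcinoma line. By role they were 8 alpha and 7 beta subunits of the core, 3 immunoproteasome subunits, 1 thymic subunit, 6 ATPases, 3 other base subunits, 8 lid subunits, 3 base chaperones, 5 core chaperones including POMP, 4 activators and 1 inhibitor. Of the 49, 47 had enough counts to be tested in each comparison. PSMA8, the testis form of an alpha subunit, and PSMB11, the thymic form of PSMB5, had too few counts to be tested.

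The study concerns THBD, which encodes thrombomodulin, a thrombin receptor of the cell surface, in senescent cells. In IMR90, whose treatment label names senescence induced by HRAS G12V, 6 libraries were labelled as carrying a hairpin against THBD, in 3 libraries of set 1 and 3 of set 2 by the numbers in their titles, against 3 libraries with a non-targeting hairpin (control). In Huh7, made senescent with the CDK4 and CDK6 inhibitor palbociclib, 3 libraries were labelled shTHBD, against 3 with the non-targeting hairpin. What the set numbers stand for is not given in the labels, the growth protocol also describes replicative senescence by long passage of IMR90, and each way of inducing senescence is seen in 1 cell line. Sets 1 and 2 are set against the same control libraries.

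The proteasome is the protease that degrades proteins tagged with ubiquitin. Its barrel-shaped core is made of outer rings of alpha subunits and inner rings of beta subunits, of which PSMB5, PSMB6 and PSMB7 carry the active sites. A regulatory cap of ATPases, other base subunits and a lid recognises, deubiquitinates and unfolds the substrate. Under interferon gamma, cells exchange the active subunits for PSMB8, PSMB9 and PSMB10, which gives the immunoproteasome, and make more of the activator subunits PSME1 and PSME2; both changes favour the peptides shown on MHC class I.

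Total gene counts per library, in units of 1e+06, ran from 18.26 to 21.51 in IMR90, from 22.48 to 25.24 in Huh7 shTHBD and from 19.33 to 20.02 in the Huh7 control. THBD went against its label in the libraries labelled set 1, at 37.8 ± 1.46 CPM (counts scaled to a common library total; SD, n = 3), while those of set 2 stood at 11.1 ± 0.556 CPM and the control at 18.4 ± 1.77 CPM. The Huh7 shTHBD libraries held 0, 0 and 0 THBD counts and the Huh7 controls 0, 0 and 6, so that no fall could be detected there at this depth. Directions are given by the labels, which in set 1 went with a rise of THBD. The description of set 2 replicate 3 names Huh7 while its other labels name IMR-90. The 3 set 2 libraries, this one included, had summed fibroblast markers of 12460 to 12630 CPM, and APOB, FGB and TTR, defining hepatocyte genes, were at 0 in every IMR90 library. AFP, of the same hepatocyte list, held 3.05 to 4.02 CPM in the set 2 libraries. It held 0.186 to 0.482 CPM in the IMR90 control and 647 to 687 CPM in the Huh7 control. Without set 2 replicate 3, the same 38 proteasome genes were called in set 2 against control, and 31 of the 33 differences between set 2 and Huh7. Summed hepatocyte markers lay between 4791 and 4978 CPM in Huh7 shTHBD and between 6845 and 7100 CPM in the Huh7 control. The fibroblast sum was 4449 to 4557 CPM in the libraries labelled set 1 and 6226 to 6317 CPM in the IMR90 control. Of its 8 genes, 1 rose and 6 fell with the set 1 label, and 6 rose and 2 fell in set 2. Of all genes, 53.9% and 67.3% were called there. COL1A1 and COL1A2 averaged 4397 and 3528 CPM in set 2, against 1744 and 785 CPM in the control. THY1 was lower in set 2, at 206 CPM against 376 CPM. The hepatocyte sum was 131.9 to 142.1 CPM in the libraries labelled set 1, 11.53 to 13.22 CPM in set 2 and 15.9 to 17.86 CPM in the IMR90 control. The hepatocyte sum with the set 1 label was almost all SERPINA1, which averaged 134 CPM there and 16.3 CPM in the IMR90 control. Its rise is therefore not read as a shift of the hepatocyte markers as a group. The part of these marker shifts in the proteasome results was not tested.

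Values below are CPM, the counts divided by the library total, as mean ± SD over n = 3 libraries unless given per library, in the order of replicates 1 to 3. Log2 fold changes come from edgeR's quasi-likelihood fit with TMM scaling, ± an approximate SE, and a gene is said to rise, fall or be called where its p, adjusted by Benjamini and Hochberg over all genes tested, was under 0.05. TMM scaling moved the log2 changes of these genes relative to their CPM by 0.055 in the libraries labelled set 1, by −0.083 in set 2 and by −0.028 in Huh7. Because no label says whether replicates came from separate cultures, each p measures the spread between these samples alone, and that spread may be technical. In bulk RNA, fewer cells of a type and less RNA per cell cannot be told apart.

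Most proteasome genes were called in every comparison, with more rises than falls against control in IMR90 and more falls than rises in Huh7. Nearly all calls against control in IMR90 were of less than 2-fold, while 7 of the 31 calls in Huh7 reached 2-fold. In the libraries labelled set 1, 38 of 47 were called against control, 27 higher and 11 lower, where 53.9% of all 15411 genes tested were called (27.4% higher, 26.5% lower). Their median log2 change was 0.17, against −0.0019 over all genes. In set 2, 38 of 47 were called, 23 higher and 15 lower, where 67.3% of all genes were called (33.2% higher, 34.1% lower); the medians were 0.17 and 0.0069. In Huh7, 31 of 47 were called, 4 higher and 27 lower, where 53% of 17474 genes were called (25.8% higher, 27.1% lower); the medians were −0.28 and 0.0020. When any 1 of the 6 Huh7 libraries was left out, the 4 rises became 2 or 3, and over all alternatives they ran from 2 to 6. Called changes of at least 2-fold were limited to PSMB9 in the libraries labelled set 1, to PSMB10 and PSMD10 in set 2, and to PSMB8, PSMB9, PSMB10, PSMD10, PSMD14, PSME1 and PSME2 in Huh7.

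Summed over all 49 genes, proteasome transcripts made up 5739 ± 11.7 CPM in the libraries labelled set 1, 5711 ± 106 CPM in set 2 and 5357 ± 35.6 CPM in the IMR90 control. The lowest shTHBD library of IMR90 held 5629 CPM and the highest control 5389 CPM, so the groups did not overlap on this scale, which divides by the total count alone. In Huh7 the sum was 2969 ± 122 CPM with shTHBD and 3424 ± 71.2 CPM in the control, again without overlap. Each sum mixes genes that rose and genes that fell. Divided also by the TMM factor of each library, the scaling behind the fold changes and an alternative chosen after seeing the data, the sum stood between 5329 and 5544 for set 2, which overlapped with the 5351 to 5424 of the IMR90 control. On that scale the libraries labelled set 1 still lay above their control, with 5993 to 6009, and the Huh7 libraries with shTHBD lay below theirs, with 2881 to 2994 against 3434 to 3486.

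**Figure D1:**
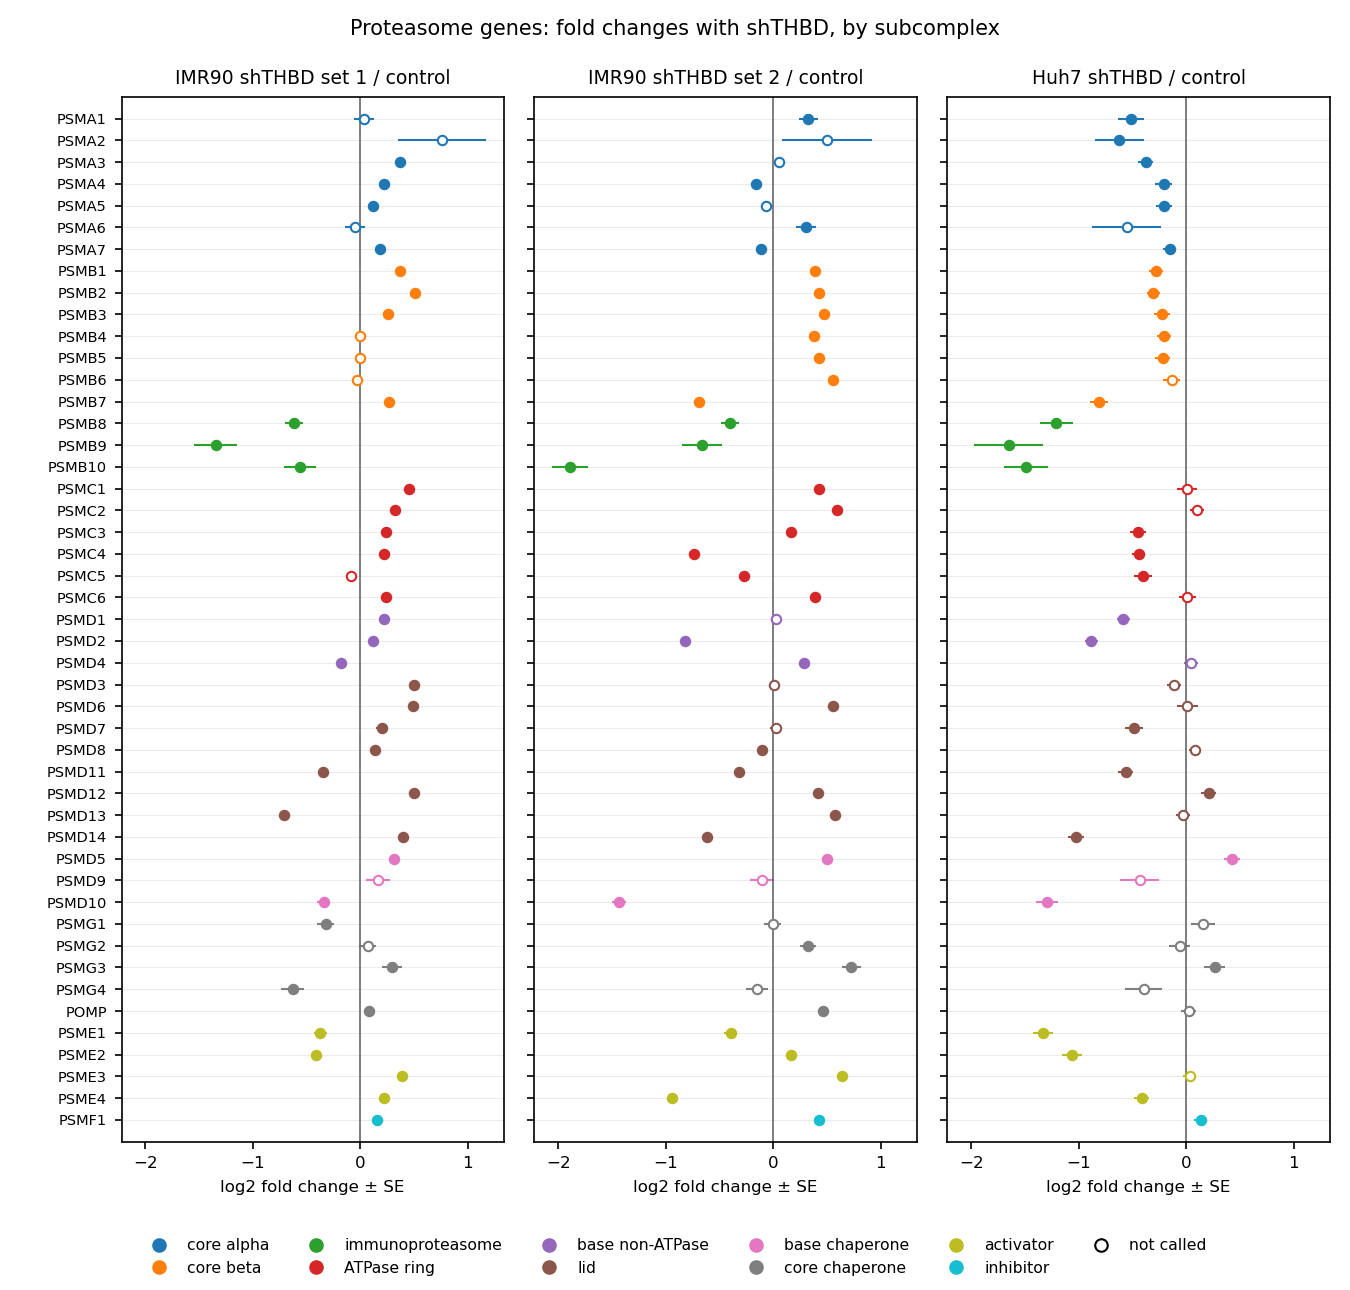
Log2 fold change ± SE (x axis) of the 47 tested proteasome genes (rows, coloured by subcomplex) in the libraries labelled shTHBD set 1 and set 2 against the IMR90 control and in Huh7 shTHBD against its control, n = 3 libraries per group. Filled points passed the test at an adjusted p under 0.05 and open points did not; the 3 immunoproteasome genes lie left of 0 in each panel, while 6 of 7 core beta genes lie right of 0 in set 2 and all 7 lie left of 0 in Huh7.

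The 3 immunoproteasome genes fell in all 3 comparisons with a control. PSMB8, which replaces the chymotrypsin-like subunit PSMB5, stood at 14.7, 15.2 and 14.2 CPM in the libraries labelled set 1, 19.2, 18.1 and 18.8 CPM in set 2, and 26.1, 21.0 and 23.0 CPM in the IMR90 control. In Huh7 it stood at 7.55, 5.83 and 5.03 CPM with shTHBD, against 13.6, 13.6 and 14.4 CPM in the control. Every shTHBD library of both lines was below every control of its line. The log2 changes were −0.62 ± 0.0864 in the libraries labelled set 1, −0.40 ± 0.084 in set 2 and −1.21 ± 0.155 in Huh7, with adjusted p of 1.3e-09, 1.4e-05 and 3.8e-08.

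PSMB9, the partner of the caspase-like subunit PSMB6, was scarce in every group. It held 1.92, 1.75 and 2.01 CPM in the libraries labelled set 1, 3.37, 3.71 and 2.94 CPM in set 2 and 5.45, 4.71 and 4.84 CPM in the IMR90 control. The Huh7 libraries held 0.788, 1.31 and 0.979 CPM with shTHBD, against 3.15, 3.05 and 3.31 CPM in the control. No group overlapped with its control, and the counts behind the lowest values were 35 in IMR90 and 19 in Huh7. PSMB9 fell by 1.34 ± 0.202 in the libraries labelled set 1, by 0.66 ± 0.185 in set 2 and by 1.65 ± 0.322 in Huh7 on the log2 scale, with adjusted p of 1.1e-08, 0.0011 and 5e-05.

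PSMB10, which replaces the trypsin-like subunit PSMB7, differed most between the sets. It stood at 5.53, 6.25 and 5.48 CPM in the libraries labelled set 1, 2.95, 1.99 and 2.61 CPM in set 2, and 10.9, 7.65 and 7.95 CPM in the IMR90 control, whose first replicate was the highest. In Huh7 it held 2.32, 3.09 and 3.07 CPM with shTHBD and 6.35, 8.79 and 8.28 CPM in the control. The groups again did not overlap with their controls. Its log2 changes were −0.56 ± 0.146 in the libraries labelled set 1, −1.89 ± 0.168 in set 2 and −1.49 ± 0.207 in Huh7 (adjusted p = 0.00064, 2.5e-18 and 1.8e-07), and the libraries labelled set 1 lay 1.33 ± 0.178 above set 2 (adjusted p = 1.3e-10).

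**Figure D2:**
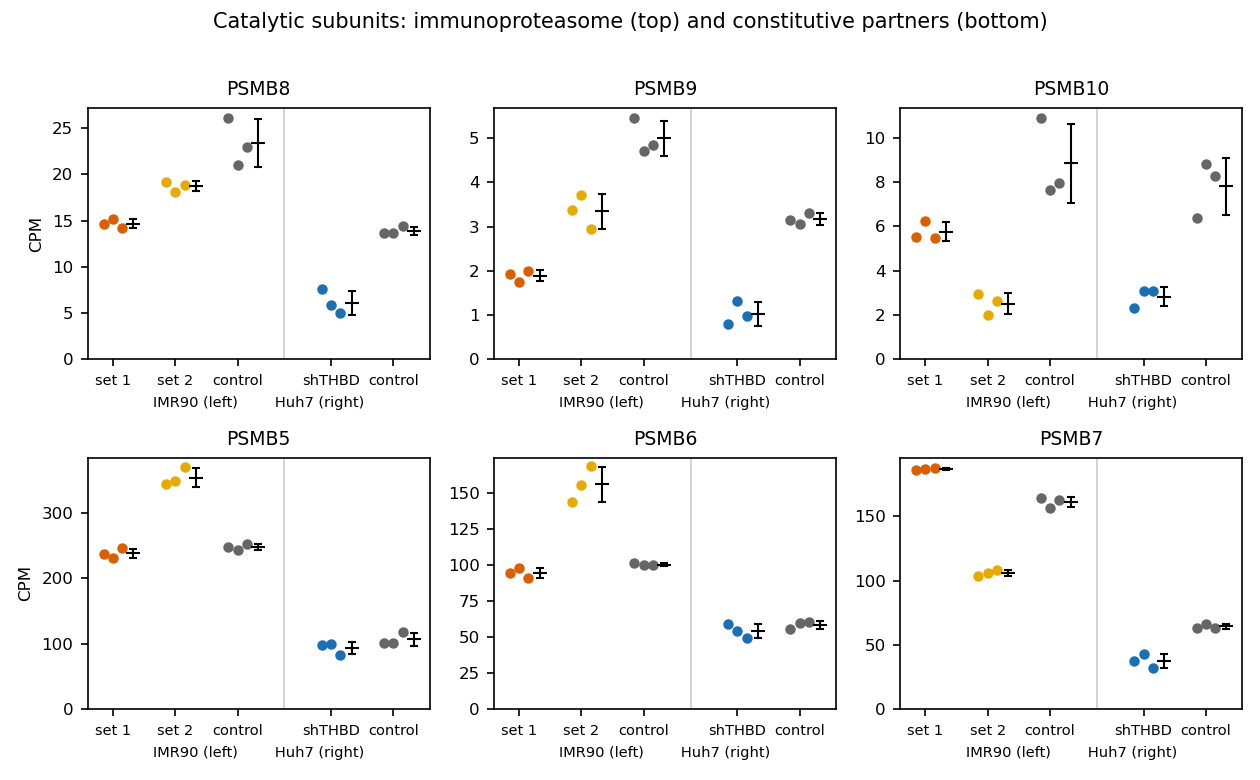
CPM (y axes, from 0) of the immunoproteasome subunits (top) and of the constitutive subunits they replace (bottom) in each library; points are replicates 1 to 3 and the bars beside them the mean ± SD of n = 3. In the top row each shTHBD group lies below its control, and in the bottom row PSMB7 is lowest in set 2 and in Huh7 shTHBD while PSMB5 and PSMB6 are highest in set 2.

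The 3 genes lie at 2 loci. PSMB8 (chr6:32840717-32844679, minus strand) and PSMB9 (chr6:32844136-32859851, plus strand; GRCh38 as in the count tables) are neighbours in the MHC region and overlap at their 5′ ends, where PSMB8-AS1 runs too. Of the exon bases of PSMB8, 17.3% overlap those of another gene, and of PSMB9, 5.21%. PSMB10 (chr16:67934506-67936864, minus strand) shares 39.4% of its exon bases with another annotated gene of the same strand. Per the file header of the IMR90 table, counting did not use strand and dropped fragments that fit more than 1 gene, so these levels leave out some fragments. How the Huh7 table was counted was not given in the sources used here.

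Interferon acts on genes through short elements near their starts, and the starts of 5 interferon-induced proteasome genes are shown for that reason. RefSeq (GRCh38.p14) windows of 250 bases before and 50 bases after the start were searched on both strands for the interferon element, taken as GAAA, any 2 bases and GAAA again; windows were at hand for 43 of the 49 genes, 52 windows in all. The motif occurred in 7 of these 52 windows (13.5%), of 7 genes, against 3.57% of 35116 promoter windows of all genes. It occurred in 4 of the 5 interferon-induced genes (PSMB8, PSMB10, PSME1 and PSME2, not PSMB9) and in 3 of the other 38 (PSMA4, PSMB4 and PSMG4). The antioxidant element, to which the transcription factors NFE2L1 and NFE2L2 bind, taken as TGAC, any 3 bases and GC, occurred in 15 of the 52 windows (28.8%), against 13.3% of all. The CCAAT box occurred in 20 of them (38.5%), against 34.6% of all. PSMB8 has 2 annotated starts, and its match lies at the second. The stretches below run from 50 bases before to 30 bases after the start, 5′ to 3′ on the gene's strand, with matches in capitals.
PSMB8, chr6:32844018-32844097, minus: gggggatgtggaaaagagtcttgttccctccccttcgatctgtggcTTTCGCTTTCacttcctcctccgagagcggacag
PSMB9, chr6:32854142-32854221, plus: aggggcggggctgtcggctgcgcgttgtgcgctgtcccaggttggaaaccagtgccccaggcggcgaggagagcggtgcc
PSMB10, chr16:67936821-67936900, minus: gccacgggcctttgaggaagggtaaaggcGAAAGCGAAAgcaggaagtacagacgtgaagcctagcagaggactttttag
PSME1, chr14:24136144-24136223, plus: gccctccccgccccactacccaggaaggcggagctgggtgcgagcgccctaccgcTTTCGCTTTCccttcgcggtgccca
PSME2, chr14:24146581-24146660, minus: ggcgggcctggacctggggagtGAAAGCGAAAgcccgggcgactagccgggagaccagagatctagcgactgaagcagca
All 4 matches are the same 10 letters, read on either strand, and lie within 30 bases of the annotated start. These letters are not particular to the 4 genes. The match of PSMG4 has them too and begins at −33 relative to its start, while those of PSMA4 and PSMB4 have other letters. PSMB9 has none in its window, which says nothing of what binds there, and a match is a description of the letters, not a binding site.

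The 3 constitutive active subunits did not move as 1 group. PSMB5, the chymotrypsin-like subunit, stood at 238, 232 and 246 CPM in the libraries labelled set 1, 345, 348 and 370 CPM in set 2 and 248, 244 and 253 CPM in the IMR90 control. The set 2 libraries were above all others, and the libraries labelled set 1 overlapped the control. PSMB5 rose by 0.43 ± 0.0278 in set 2 (adjusted p = 1.6e-26), had a log2 change of −0.0027 ± 0.0285 in the libraries labelled set 1 with an adjusted p of 0.95, and fell by 0.22 ± 0.0701 in Huh7 (adjusted p = 0.0091; 0.095 without control replicate 3). The Huh7 levels were 98.6, 99.9 and 82.3 CPM with shTHBD and 101, 101 and 118 CPM in the control, not overlapping by a narrow gap.

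PSMB6, the caspase-like subunit, held 94.6 ± 3.58 CPM in the libraries labelled set 1, 156 ± 12.3 CPM in set 2 and 100.5 ± 1.04 CPM in the IMR90 control. It rose by 0.55 ± 0.0393 in set 2 (adjusted p = 2.5e-23), while the change was −0.03 ± 0.0411 in the libraries labelled set 1 with an adjusted p of 0.53, and −0.14 ± 0.0761 in Huh7 (adjusted p = 0.13), where the groups overlapped. PSMB7, the trypsin-like subunit, went the other way. It stood at 186, 187 and 188 CPM in the libraries labelled set 1, 103, 106 and 108 CPM in set 2 and 164, 157 and 163 CPM in the IMR90 control, and at 37.7, 42.6 and 32.2 CPM in Huh7 shTHBD against 63.3, 66.2 and 63.5 CPM in the Huh7 control. The libraries labelled set 1 lay above the control, and set 2 and Huh7 shTHBD below theirs, with no overlap: 0.27 ± 0.0323, −0.69 ± 0.0343 and −0.81 ± 0.0834 (adjusted p = 7.7e-12, 1.3e-34 and 3.9e-10).

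To set the immunoproteasome genes beside the subunits they replace, levels were scaled for exon length (TPM) and PSMB8, PSMB9 and PSMB10 were expressed as a share of the sum of all 6 genes. The libraries labelled set 1 had shares of 2.48, 2.64 and 2.40%, those of set 2 had 2.15, 1.89 and 1.86%, and the IMR90 control had 4.69, 3.73 and 3.85%. In Huh7 it was 2.96, 3.06 and 3.33% with shTHBD, against 5.94, 6.65 and 6.25% in the control. No shTHBD library reached its lowest control. The differences were −1.58 percentage points in the libraries labelled set 1, −2.12 in set 2 and −3.17 in Huh7; an exact two-sided permutation test gave p = 0.1 each time, the smallest that 3 against 3 allows. By pair, the share of PSMB9 in PSMB9 and PSMB6 was the lowest, at 0.861 ± 0.0903% in the libraries labelled set 1, 0.925 ± 0.152% in set 2 and 2.11 ± 0.141% in the control. That of PSMB10 in PSMB10 and PSMB7 was 7.74 ± 1.61% in Huh7 shTHBD and 11.7 ± 1.57% in its control, and that of PSMB8 in PSMB8 and PSMB5 was 2.83 ± 0.414% in Huh7 shTHBD and 5.50 ± 0.284% in the Huh7 control.

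**Figure D3:**
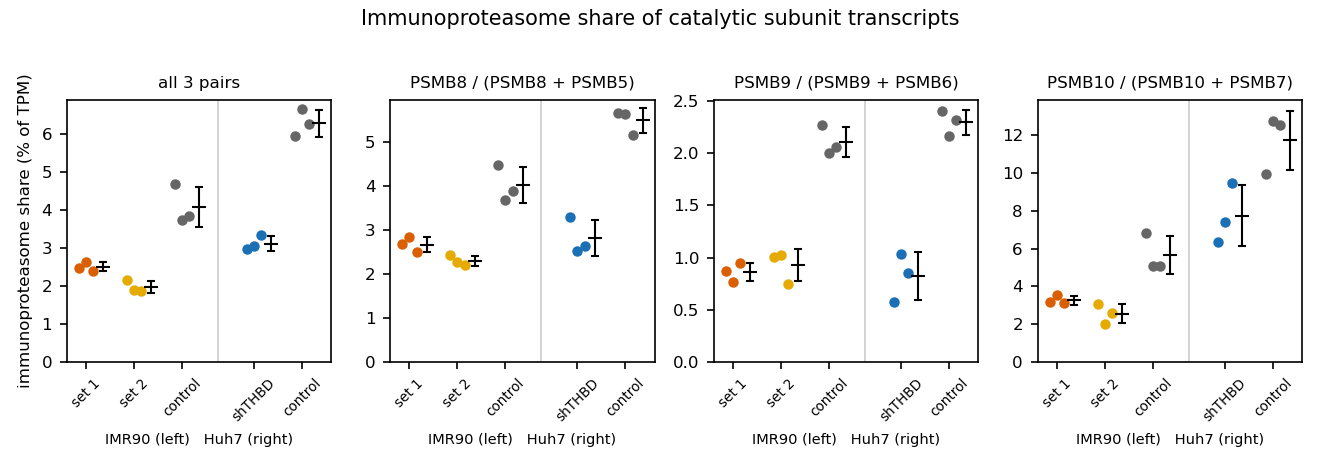
Immunoproteasome share of catalytic subunit transcripts (y axes, percent of TPM, from 0) in each library, over all 3 pairs and for each pair; points are replicates 1 to 3 and bars the mean ± SD of n = 3. Over all pairs the shTHBD libraries lie between 1.86 and 3.33% and the controls between 3.73 and 6.65%.

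The activators bind the ends of the core in place of the cap, and PSME1 and PSME2 are those induced by interferon. Only in the libraries labelled set 1 did these fall while PSME3 and PSME4 rose. PSME1, the alpha subunit of the interferon-induced activator, held 34.7, 33.7 and 37.0 CPM in the libraries labelled set 1, 37.8, 35.5 and 41.2 CPM in set 2 and 48.1, 46.6 and 47.3 CPM in the IMR90 control. In Huh7 it held 18.2, 21.2 and 17.6 CPM with shTHBD and 46.8, 45.8 and 48.4 CPM in the control. All shTHBD libraries were below their controls, with log2 changes of −0.37 ± 0.0602, −0.39 ± 0.0599 and −1.33 ± 0.0927 in the libraries labelled set 1, set 2 and Huh7 (adjusted p = 7.7e-08, 7.9e-09 and 2.6e-14). Its partner PSME2, the beta subunit, stood at 77.2, 76.3 and 77.7 CPM in the libraries labelled set 1, 126, 137 and 118 CPM in set 2, and 104, 106 and 110 CPM in the IMR90 control. In Huh7, PSME2 held 21.9, 23.5 and 18.5 CPM with shTHBD and 38.7, 45.4 and 46.6 CPM in the control. PSME2 thus fell by 0.41 ± 0.0418 in the libraries labelled set 1, with an adjusted p of 3.6e-15, and in Huh7 (−1.06 ± 0.0967, adjusted p = 2.1e-11) but rose in set 2 (0.17 ± 0.0398, adjusted p = 0.00011).

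PSME3, the nuclear activator that forms a ring of its own, rose in both IMR90 sets. Its level was 244 ± 4.59 CPM in the libraries labelled set 1, 320 ± 6.56 CPM in set 2 and 194 ± 1.42 CPM in the control, with changes of 0.38 ± 0.0283 and 0.64 ± 0.0279 (adjusted p = 1.8e-22 and 6.2e-39). In Huh7 the groups overlapped (139.7 ± 6.10 CPM with shTHBD, 134 ± 1.64 CPM in the control; 0.03 ± 0.0604, adjusted p = 0.66). PSME4, the large single-chain activator, held 256, 262 and 250 CPM in the libraries labelled set 1, 128, 124 and 125 CPM in set 2 and 224, 227 and 232 CPM in the control. Set 2 lay well below both other groups, which were themselves apart: in the libraries labelled set 1, PSME4 rose by 0.22 ± 0.029, while it fell by 0.94 ± 0.031 in set 2 and by 0.41 ± 0.0679 in Huh7 (adjusted p = 7.9e-11, 1.4e-48 and 3.6e-06). The inhibitor PSMF1 rose in all 3 comparisons, by 0.15 ± 0.0395, 0.43 ± 0.0385 and 0.13 ± 0.0579 in the libraries labelled set 1, set 2 and Huh7 (adjusted p = 0.00061, 5.5e-18 and 0.05, the last just under the threshold before rounding). The Huh7 call was lost under 9 of 13 alternatives (adjusted p up to 0.16).

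**Figure D4:**
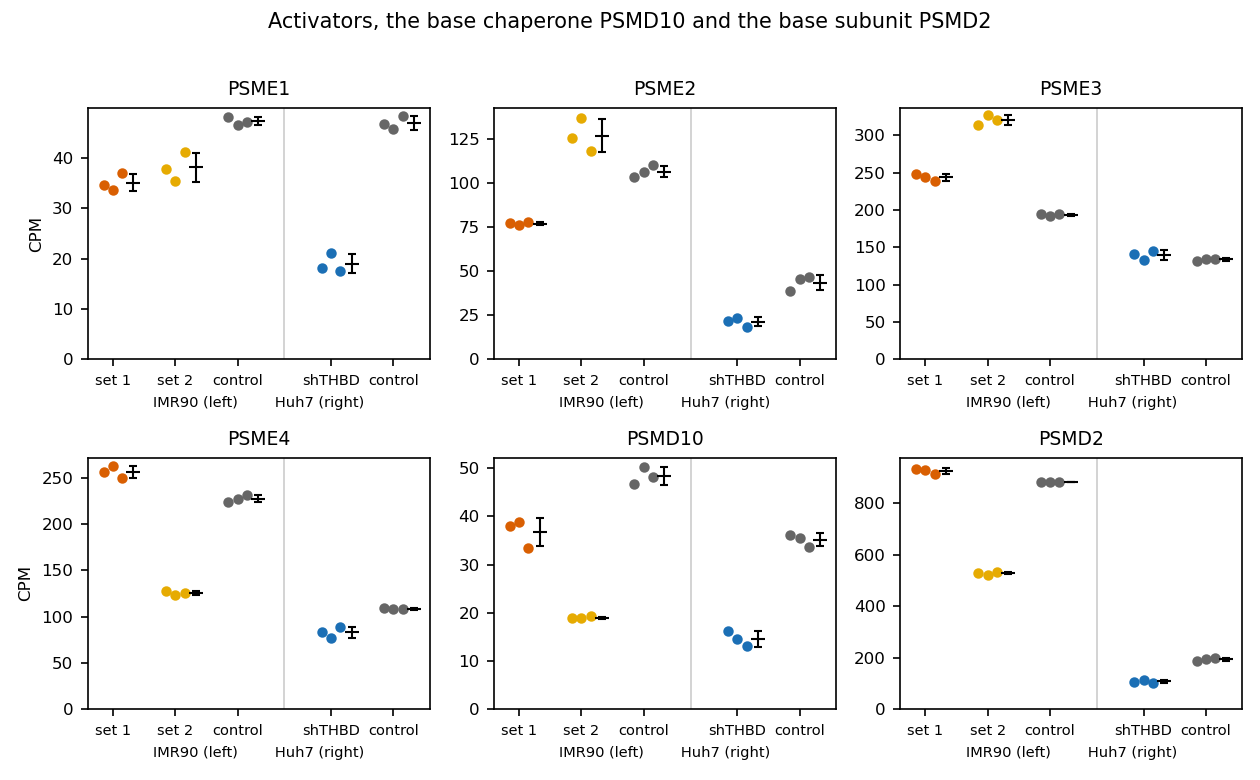
CPM (y axes, from 0) of the 4 activators, of the base chaperone PSMD10 and of the base subunit PSMD2 in each library; points are replicates 1 to 3 and bars the mean ± SD of n = 3. PSME1 and PSMD10 are below control in each shTHBD group, PSME4 and PSMD2 are below control in set 2 and in Huh7 and above it in the libraries labelled set 1, and PSME2 is above control in set 2 only among the shTHBD groups.

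Among the other core genes, the beta subunits gave the plainest contrast between lines. For all genes tested, the shares called higher and lower were 33.2% and 34.1% in set 2. They were 25.8% and 27.1% in Huh7, and 27.4% and 26.5% with the set 1 label. The alpha, ATPase and lid counts below have the same background, and no subgroup count was tested against it. Of the 7 beta genes, constitutive active subunits included, 4 rose and none fell in the libraries labelled set 1, 6 rose and 1 fell (PSMB7) in set 2, and 6 fell and none rose in Huh7. PSMB2, a non-catalytic inner ring subunit, stood at 170, 176 and 178 CPM in the libraries labelled set 1, 178, 181 and 186 CPM in set 2 and 128, 130 and 125 CPM in the IMR90 control. The control libraries were below all 6 shTHBD libraries of IMR90. In Huh7, PSMB2 held 88.2, 87.2 and 88.0 CPM with shTHBD and 107, 108 and 104 CPM in the control, with the groups in the opposite order and no overlap. The log2 changes were 0.51 ± 0.0331, 0.43 ± 0.0331 and −0.31 ± 0.0627 (adjusted p = 5.3e-26, 7.8e-22 and 9.5e-05).

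The alpha subunits form the outer rings of the core. In the libraries labelled set 1, 4 of 7 tested rose and none fell; in set 2, 2 rose and 2 fell; in Huh7, 6 fell and none rose. PSMA7 was the most abundant alpha gene per length, at 451 ± 10.1 TPM in the libraries labelled set 1, 402 ± 20.8 TPM in set 2 and 426 ± 3.46 TPM in the IMR90 control. PSMA2 and PSMA6, also parts of the outer ring, had far lower length-scaled levels than their ring partners. PSMA2 held 0.443 ± 0.262 TPM in the libraries labelled set 1, 0.408 ± 0.111 TPM in set 2 and 0.282 ± 0.0411 TPM in the control, on 12 to 37 counts per library. PSMA6 held 7.12 ± 0.242, 9.97 ± 0.242 and 7.87 ± 0.636 TPM in these groups, and 0.822 ± 0.122 TPM in Huh7 shTHBD against 1.17 ± 0.127 TPM in the Huh7 control. Other annotated genes cover 29.7% of the PSMA2 exon bases in the IMR90 table and 14.1% of those of PSMA6, so these levels leave out fragments, and how many was not measured. PSMA6 rose in set 2 (0.31 ± 0.0912, adjusted p = 0.0021) and was not called in Huh7 (−0.55 ± 0.325, adjusted p = 0.15).

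In the cap, the ATPases of the base rose more often in IMR90 than they fell. In the libraries labelled set 1, 5 of 6 rose and none fell; in set 2, 4 rose and 2 fell (PSMC4 and PSMC5); in Huh7, 3 fell and none rose. PSMC2 stood at 121, 120 and 118 CPM in the libraries labelled set 1, 154, 159 and 164 CPM in set 2 and 98.4, 102 and 98.2 CPM in the IMR90 control. All 6 shTHBD libraries were above the control, by 0.33 ± 0.0367 and 0.59 ± 0.0359 on the log2 scale (adjusted p = 4.9e-13 and 1.8e-28). PSMC4 stood at 171, 164 and 170 CPM in the libraries labelled set 1, 89.7, 92.5 and 105 CPM in set 2 and 150, 149 and 152 CPM in the control; it rose by 0.22 ± 0.0358 with the set 1 label and fell by 0.74 ± 0.038 in set 2 (adjusted p = 1.1e-07 and 1.9e-32) and by 0.44 ± 0.0616 in Huh7 (adjusted p = 2e-07). PSMC1 shares 76.1% of its exon bases with NRDE2 on the opposite strand, the largest overlap among these genes.

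PSMD2, a ubiquitin-like domain receptor of the base, was the most abundant proteasome gene of IMR90 in CPM. It held 932, 928 and 912 CPM in the libraries labelled set 1, 530, 523 and 532 CPM in set 2 and 883, 882 and 881 CPM in the control. In Huh7 it held 106, 114 and 102 CPM with shTHBD and 187, 195 and 199 CPM in the control. In the libraries labelled set 1, PSMD2 rose by 0.12 ± 0.0204, while it fell by 0.82 ± 0.0209 in set 2 and by 0.88 ± 0.0583 in Huh7 (adjusted p = 1.7e-07, 5.2e-58 and 6.9e-15). The other base receptor, PSMD4, went the other way in IMR90. It fell by 0.18 ± 0.0384 in the libraries labelled set 1 and rose by 0.28 ± 0.037 in set 2 (adjusted p = 3.4e-05 and 5.4e-11), while in Huh7 the change was 0.05 ± 0.065 (adjusted p = 0.57). PSMD1, the scaffold of the base, rose by 0.22 ± 0.0344 in the libraries labelled set 1, had a change of 0.03 ± 0.0346 in set 2 and fell by 0.59 ± 0.0604 in Huh7 (adjusted p = 2.4e-08, 0.45 and 3.7e-10).

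The 8 lid genes gave 6 rises and 2 falls in the libraries labelled set 1, 3 rises and 3 falls in set 2, and 1 rise and 3 falls in Huh7. PSMD14, the deubiquitinase of the lid, stood at 130, 132 and 130 CPM in the libraries labelled set 1, 70.9, 72.2 and 70.7 CPM in set 2 and 106, 101 and 103 CPM in the IMR90 control. Huh7 held 38.01, 44.0 and 41.8 CPM with shTHBD and 81.6, 84.2 and 81.0 CPM in the control. The 3 IMR90 groups were fully apart, and the changes were 0.39 ± 0.0375, −0.62 ± 0.0402 and −1.02 ± 0.0751 in the libraries labelled set 1, set 2 and Huh7 (adjusted p = 2.2e-16, 2e-26 and 1e-13). PSMD13 had the reverse order in IMR90, at 77.7, 81.0 and 78.1 CPM in the libraries labelled set 1, 207, 216 and 211 CPM in set 2, and 129, 133 and 140 CPM in the control. It fell by 0.71 ± 0.0372 with the set 1 label and rose by 0.57 ± 0.0339 in set 2 (adjusted p = 3.4e-32 and 3.7e-29), and Huh7 gave −0.03 ± 0.0678 (adjusted p = 0.74). PSMD11 fell in all 3 comparisons (−0.34 ± 0.0399, −0.32 ± 0.0396 and −0.56 ± 0.067) and PSMD12 rose in all 3 (0.50 ± 0.0353, 0.42 ± 0.0353 and 0.21 ± 0.0717), though its Huh7 call was lost without shTHBD replicate 3 or control replicate 3 (adjusted p up to 0.091). PSMD3 rose by 0.50 ± 0.029 in the libraries labelled set 1, with an adjusted p of 3.6e-29, and gave 0.01 ± 0.0296 in set 2 (adjusted p = 0.79).

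Of the chaperones that assemble the base, PSMD10, the ankyrin-repeat protein also called gankyrin, fell in all 3 comparisons and PSMD5 rose in all 3. PSMD10 stood at 38.1, 38.9 and 33.5 CPM in the libraries labelled set 1, 18.9, 18.8 and 19.2 CPM in set 2 and 46.7, 50.3 and 48.3 CPM in the IMR90 control. In Huh7 it held 16.3, 14.5 and 13.03 CPM with shTHBD, against 36.2, 35.6 and 33.6 CPM in the control. No shTHBD library overlapped its controls, and the falls were 0.34 ± 0.0617, 1.43 ± 0.0679 and 1.29 ± 0.103 on the log2 scale in the libraries labelled set 1, set 2 and Huh7 (adjusted p = 1.3e-06, 4.8e-36 and 8.9e-13). PSMD5 held 69.4 ± 1.73 CPM in the libraries labelled set 1, 87.2 ± 3.34 CPM in set 2 and 58.0 ± 3.55 CPM in the IMR90 control, and 89.9 ± 1.87 CPM in Huh7 shTHBD against 65.6 ± 4.60 CPM in the Huh7 control. The rises were 0.31 ± 0.0476, 0.50 ± 0.0466 and 0.43 ± 0.0706 (adjusted p = 1.6e-08, 2.2e-17 and 4e-06). PSMD9, the third base chaperone, was called in none of the 3.

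The core chaperones differed among themselves. POMP, which completes the maturation of the core, rose in set 2 to 199 ± 8.46 CPM, against 136 ± 2.56 CPM in the IMR90 control (0.46 ± 0.0332, adjusted p = 1.4e-23). In the libraries labelled set 1 it stood at 139 ± 2.74 CPM, overlapping the control, with a change of 0.08 ± 0.0341 (adjusted p = 0.034) whose call was lost under 5 of 14 alternatives (adjusted p up to 0.21). In Huh7 the groups overlapped (72.8 ± 5.69 CPM with shTHBD, 70.2 ± 4.36 CPM in the control; adjusted p = 0.8). PSMG3 rose in the libraries labelled set 1 (0.29 ± 0.0921, adjusted p = 0.0046), in set 2 (0.73 ± 0.088, adjusted p = 3.5e-12) and in Huh7 (0.26 ± 0.0974, adjusted p = 0.022), where its groups overlapped and the call was lost without shTHBD replicate 1, control replicate 1 or control replicate 2 (adjusted p up to 0.18). PSMG4 fell in the libraries labelled set 1, to 9.75, 9.49 and 8.32 CPM, against 15.1, 15.5 and 13.7 CPM in the control (−0.63 ± 0.105, adjusted p = 1.7e-07), and was not called in set 2 (−0.15 ± 0.0989, adjusted p = 0.17) or Huh7 (−0.39 ± 0.175, adjusted p = 0.058).

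The sets, although both are labelled shTHBD, differed from each other in 40 of 47 proteasome genes, 19 higher in the libraries labelled set 1 and 21 lower, where 69.6% of all genes tested were called (34% higher, 35.6% lower). The largest differences among genes of at least 10 CPM were PSMD13 (−1.28 ± 0.036), PSME4 (1.17 ± 0.0307), PSMD10 (1.09 ± 0.0701) and PSMD14 (1.01 ± 0.0394), with adjusted p between 1.1e-56 and 8.9e-27. TMM scaling moved the log2 differences of these genes between the sets by 0.138 relative to CPM. Against the control that both sets share, 8 genes rose in the libraries labelled set 1 and fell in set 2: PSMA4, PSMA7, PSMB7, PSMC4, PSMD2, PSMD8, PSMD14 and PSME4. PSMD4, PSMD13 and PSME2 did the reverse, falling with the set 1 label and rising in set 2. How many of all genes were called in opposite directions in the sets was not counted. Neither list is therefore read as particular to the proteasome genes. All 5 core chaperones were lower in the libraries labelled set 1 than in set 2, by 0.25 to 0.48 on the log2 scale. PSMB2 and PSMD12 were called slightly higher in the libraries labelled set 1 (0.08 ± 0.0321 and 0.08 ± 0.0343), while their CPM means were lower there (174 and 142 CPM in the libraries labelled set 1, 182 and 148 CPM in set 2) and upper-quartile scaling turned their sign.

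Set 2, in which THBD fell, and Huh7 share no library and were set side by side. Of the 15 genes that fell in set 2, 14 also fell in Huh7 (93.3% of that list, and 51.9% of the 27 that fell in Huh7): PSMA4, PSMA7, PSMB7, PSMB8, PSMB9, PSMB10, PSMC4, PSMC5, PSMD2, PSMD10, PSMD11, PSMD14, PSME1 and PSME4. The 4 genes that rose in Huh7, PSMD5, PSMD12, PSMF1 and PSMG3, also rose in set 2, where they were 17.4% of the 23 that rose. A further 8 rose in set 2 and fell in Huh7: PSMA1, PSMB1, PSMB2, PSMB3, PSMB4, PSMB5, PSMC3 and PSME2. They were 34.8% of the rises in set 2 and 29.6% of the falls in Huh7. None of the 47 proteasome genes tested fell in set 2 and rose in Huh7. Across the 47 genes, Pearson's r of the log2 changes was 0.735 and Spearman's rho 0.663, given as a description, since genes are not independent replicates. Over all 12645 genes tested in both tables, 2341 fell in both, which is 51.1% of the 4577 that fell in set 2 and 60.2% of the 3888 that fell in Huh7, and 2099 rose in both, 47.3% of the 4439 that rose in set 2 and 57.6% of the 3641 that rose in Huh7. Another 646 of all genes rose in set 2 and fell in Huh7, 14.6% of the rises in set 2 and 16.6% of the falls in Huh7. The reverse held for 739, 16.1% of the falls in set 2 and 20.3% of the rises in Huh7. Pearson's r over all genes tested in both was 0.373 and Spearman's rho 0.403. The difference between the proteasome genes and all genes was not tested.

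**Figure D5:**
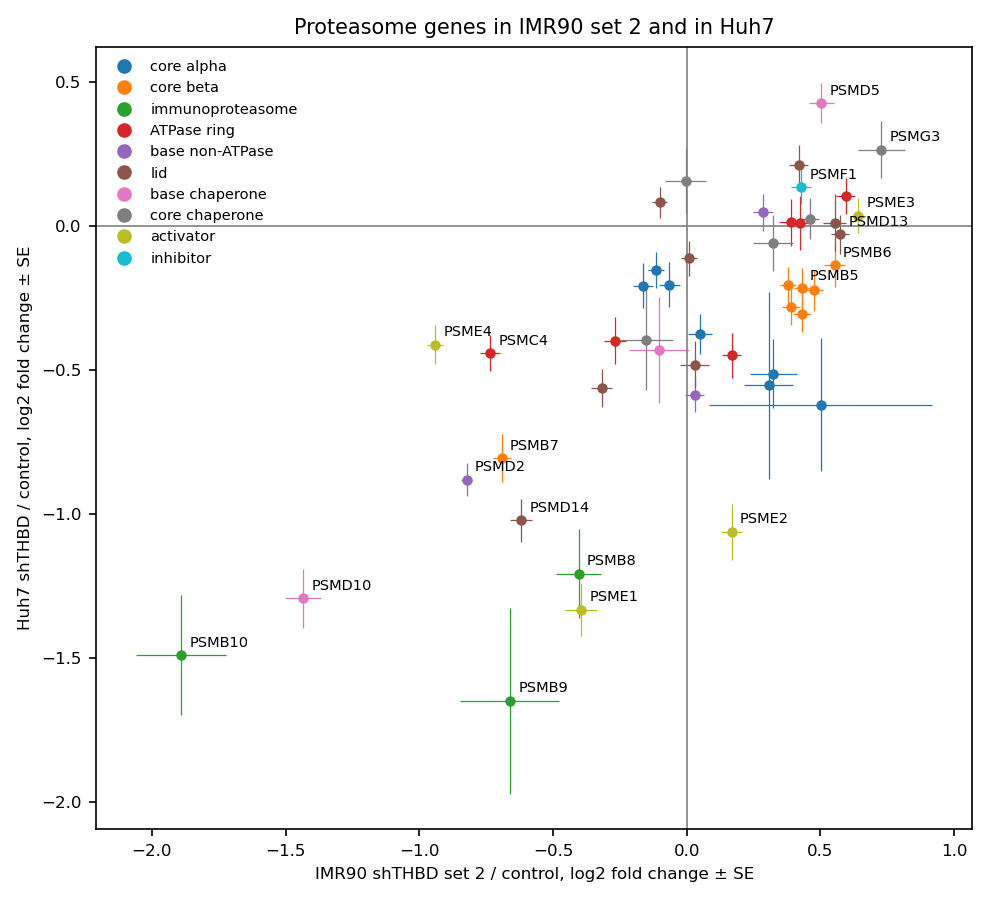
Log2 fold change ± SE of the 47 tested proteasome genes in IMR90 set 2 against control (x axis) and in Huh7 shTHBD against control (y axis), coloured by subcomplex. The 14 genes that fell in both lie at the lower left, led by PSMB10 and PSMD10, and the beta subunits PSMB1 to PSMB5 lie right of 0 and below 0.

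A joint fit of both tables tested the difference itself, the set 2 change minus the Huh7 change. It was called in 33 of 47 genes, 30 with the higher change in set 2 and 3 with the lower, where 43.9% of 16682 genes were called (21.1% and 22.8%); the median difference was 0.39 over these genes and −0.00046 over all. PSME2 differed most (1.20 ± 0.0931, adjusted p = 6.2e-15), followed by PSMB9 (0.96 ± 0.338, adjusted p = 0.019; 0.067 at most, without set 2 replicate 2 or Huh7 shTHBD replicate 1) and PSME1 (0.91 ± 0.106, adjusted p = 7.5e-10). For the fall of PSMB10 the difference between lines was not called (−0.43 ± 0.277, adjusted p = 0.22), nor was it for PSMB7 (0.09 ± 0.0782, adjusted p = 0.41), PSMD2 (0.03 ± 0.0502, adjusted p = 0.69) or PSMD10 (−0.17 ± 0.119, adjusted p = 0.26). PSME4 fell more in set 2 than in Huh7 (−0.56 ± 0.068, adjusted p = 2.5e-09), and so did PSMC4 (−0.32 ± 0.0703, adjusted p = 0.00017).

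Beside the proteasome itself, 27 genes of its wider pathway were counted (receptors, deubiquitinases, transcription factors, ubiquitin genes). In the libraries labelled set 1, 19 rose and 4 fell; in set 2, 12 rose and 10 fell; in Huh7, 10 rose and 11 fell. Of all genes tested, 53.9% were called in the libraries labelled set 1, 67.3% in set 2 and 53% in Huh7. DDI2, the protease that activates the proteasome transcription factor NFE2L1, fell in set 2 to 15.9 ± 0.207 CPM, against 45.1 ± 2.14 CPM in the IMR90 control (−1.58 ± 0.0688, adjusted p = 6.3e-39). In Huh7 DDI2 fell to 20.04 ± 2.90 CPM, against 54.4 ± 3.34 CPM in the control (−1.47 ± 0.0955, adjusted p = 4.4e-15), while in the libraries labelled set 1 it rose by 0.14 ± 0.0588 (adjusted p = 0.033). STUB1, a ubiquitin ligase that works with chaperones, fell by 0.27 ± 0.0406 in the libraries labelled set 1, by 1.18 ± 0.0436 in set 2 and by 1.22 ± 0.104 in Huh7 (adjusted p = 1.3e-08, 2.1e-44 and 3.9e-12). NFE2L1 itself fell in the libraries labelled set 1 (−0.54 ± 0.0246, adjusted p = 1.1e-36), was not called in set 2 (0.05 ± 0.0239, adjusted p = 0.079) and rose in Huh7 (0.42 ± 0.0526, adjusted p = 2.3e-08).

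Of 10 genes of interferon signalling and MHC class I peptide loading, 1 rose and 4 fell in the libraries labelled set 1, 2 rose and 6 fell in set 2, and 1 rose and 7 fell in Huh7. The 5 called in the libraries labelled set 1 are a share near the 53.9% of all genes; in set 2 and Huh7, 8 of 10 were called in each, beside 67.3% and 53%. The peptide transporter genes parted in set 2, where TAP1, a neighbour of PSMB9, rose by 0.79 ± 0.0466 and TAP2 fell by 1.54 ± 0.0865 (adjusted p = 2.7e-29 and 1e-30). NLRC5, the transactivator of MHC class I genes, rose in Huh7 to 15.8 ± 0.579 CPM, against 3.19 ± 0.294 CPM in the control (2.28 ± 0.161, adjusted p = 3.9e-14), opposite to the immunoproteasome genes there. Leukocytes are the cells in which the immunoproteasome is the usual form; the summed level of 8 leukocyte markers was 12.08 to 13.54 CPM in the libraries labelled set 1, 1.307 to 2.123 CPM in set 2 and 4.184 to 4.924 CPM in the IMR90 control, with CD3E at 0 in all 9 libraries, and the part of this shift was not tested. In Huh7 the sum stood at 9.609 to 10.66 CPM with shTHBD and 11.14 to 11.9 CPM in the control.

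By length-scaled level, PSMD2 ranked first in the IMR90 control at 635 ± 0.545 TPM and 11th in the Huh7 control at 136 ± 5.34 TPM, where PSMA7 was first at 311 ± 17.9 TPM. In the IMR90 control PSMB5, PSMA7 and POMP followed PSMD2, at 572 ± 11.02, 426 ± 3.46 and 333 ± 6.35 TPM, each apart from its neighbour beyond the SD. The immunoproteasome genes ranked low in both: PSMB8, PSMB10 and PSMB9 stood 40th, 42nd and 44th in the IMR90 control and 41st, 39th and 44th in the Huh7 control. PSMB8 and PSMB10 did not differ beyond their spread in either line (24.0 ± 2.60 and 19.4 ± 3.89 TPM in IMR90, 13.9 ± 0.546 and 16.7 ± 2.85 TPM in Huh7). Rows of proteasome pseudogenes held at most 0.0566% of the counts of these genes in an IMR90 library and 0.0649% in a Huh7 library; reads given up for mapping to several places were not counted.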

How the data were processed

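RNA of 15 libraries was sequenced, 9 of IMR90 and 6 of Huh7, 3 per group by their titles. The counts per gene that the authors deposited were the start. The tools were fastp, STAR and featureCounts with GRCh38, per the submitters' processing notes. The IMR90 table came from featureCounts 2.0.1 with GENCODE 38, per the file headers; the version behind the Huh7 table was not given in the sources used here. Descriptions of Huh7 samples name a differently named table.

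Each line was fitted alone with edgeR 4.0.16 (R 4.3.3; filterByExpr, TMM, robust quasi-likelihood), the 9 IMR90 libraries in 1 fit, and 1 fit of all libraries, over symbols found in both tables, compared the lines. P-values were adjusted over all genes tested and called under 0.05. The approximate SE divides the size of the log2 change by the square root of F. Common biological variation (BCV) was 3.13% for IMR90, 8.2% for Huh7 and 5.48% jointly. TPM used the deposited exon lengths. Genes named in full were the catalytic subunits, activators, PSMF1, POMP and, per comparison, the 3 largest rises and falls among called genes that averaged 10 CPM or more in 1 group; others were named after their values were seen. The genes and lists were chosen with earlier results of these data known. Alternatives were DESeq2 1.42.0 scaling and test, upper-quartile scaling, limma 3.58.1 voom, other filters, a replicate block, other groups left out of the fit, and each library left out. Deviations of equal replicate numbers correlated by −0.0259 to 0.0225 in IMR90 and −0.0524 to −0.0158 in Huh7. These values gave no sign of pairing by number, but counting noise could hide a weak tie, so pairing was not excluded. The fit was tested on simulated counts. Promoter sequence is from RefSeq (GRCh38.p14). Values of some genes of the lists are not reported here.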

Additional observations from a re-analysis of the deposited data

Results flagged for a closer look

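The change in set 2 differed from the change in Huh7, by the joint fit, for 19 of the 26 genes given in full, all given here as the set 2 change minus the Huh7 change on the log2 scale. PSMA6, PSMC4 and PSMD8 were given in full only because they were among the largest called differences of this same fit. The 19 is therefore not read as a rate. Of all 16682 genes tested, 43.9% were called. Those in which set 2 fell less or rose, while Huh7 fell, were PSME2 (1.20), PSMB9 (0.96), PSME1 (0.91), PSMB8 (0.77), PSMB2 (0.71), PSMB5 (0.62) and PSMD14 (0.37). PSMA6 (0.83), PSMB6 (0.66), PSME3 (0.58), PSMD13 (0.57), PSMC2 (0.46) and POMP (0.41) rose in set 2 and were not called in Huh7. PSMG3 (0.43), PSMF1 (0.26) and PSMD12 (0.18) rose in both and more in set 2. PSMD8 (−0.21) fell in set 2 and was not called in Huh7, and PSMC4 (−0.32) and PSME4 (−0.56) fell in both and more in set 2. The comparison sets 2 lines apart that also differ in the way senescence was induced and in the table they were counted in, and these cannot be told apart. The difference of PSMB9 was lost under 2 of 19 alternatives and that of PSMD12 under 7 of 19.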

How the results depend on the processing

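Counts of proteasome genes called higher or lower stayed within 1.5 times under every alternative, except the count higher in Huh7, which was 4 with all libraries and ran from 2 to 3 when each library was left out in turn. Over all alternatives that count ran from 2 to 6. Among single genes under each alternative, 3362 values kept direction and side of the threshold, 82 lost the call, 29 gained it and 2 reversed. Those 2 were PSMB2 (−0.0187) and PSMD12 (−0.0181) in the libraries labelled set 1 against set 2 under upper-quartile scaling, which moved the median of all genes there to −0.13, as against −0.03; the cause was not tested. The call of PSMB8 between the sets was lost under 7 of 14 alternatives, and that of PSMD8 in set 2 under upper-quartile scaling (adjusted p = 0.27). Without length scaling the immunoproteasome share differed by −2.68 percentage points in the libraries labelled set 1, −2.95 in set 2, −4.66 in Huh7 and 0.28 between the sets, by construction, since PSMB8 and PSMB9 are longer than their partners. With the replicate block, 38, 38 and 40 proteasome genes were called in the IMR90 comparisons, 33 in the joint fit and 29 in Huh7 against 31 without it, 28 of those among them; labels do not tie equal numbers together. The difference of the summed CPM of the proteasome genes from control was 382 for the libraries labelled set 1, 354 for set 2 and −455 for Huh7; with TMM scaling, chosen after seeing the data, it was 610, 33 and −519. Depth limits PSMB9, PSMB10 and PSMA2, with at most 208 counts in a library, and PSMA6 in Huh7, with 30 to 47.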

Other observations

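The testis subunit PSMA8 had 2, 15 and 0 counts in the Huh7 shTHBD libraries and 0 in each of the other 12. The thymic subunit PSMB11 had no count in the libraries labelled set 1, it had 2, 3 and 2 counts in set 2 and 0, 1 and 0 in the IMR90 control, and 0, 0 and 0 in Huh7 shTHBD against 4, 5 and 0 in the Huh7 control. With so few counts, no fold is given.

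Ubiquitin genes also parted in set 2 and in Huh7. UBB, a polyubiquitin gene, averaged 353 ± 21.1 CPM in the libraries labelled set 1, and it fell to 253 ± 11.3 CPM in set 2, against 365 ± 7.23 CPM in the IMR90 control. In Huh7 UBB fell to 208 ± 14.1 CPM, against 332 ± 5.57 CPM in the control. Its log2 changes were 0.01 ± 0.0302 in the libraries labelled set 1, −0.61 ± 0.031 for set 2 and −0.71 ± 0.0541 in Huh7 (edgeR, adjusted p = 0.84, 6.3e-23 and 3.2e-13). RPS27A, which encodes a ubiquitin fusion, rose by 0.38 in set 2 and by 0.27 in Huh7. PITHD1, which binds the proteasome, rose in the libraries labelled set 1 and set 2 (0.32 ± 0.0714 and 0.90 ± 0.0677) and fell in Huh7 (−0.48 ± 0.0967), and the joint fit gave a difference of 1.34 ± 0.122 between set 2 and Huh7 (adjusted p = 8.5e-13).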
